A study of Homo sapiens with 21 samples.

Results

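The 10 genes described here encode DNA-binding proteins that give regions of the heart their identity: the T-box factors TBX2, TBX3, TBX5, TBX18 and TBX20, the Iroquois homeobox factors IRX3, IRX4 and IRX5, and the orphan nuclear receptors NR2F1 and NR2F2. They were found by gene symbol in each of 6 deposited tables of transcripts, and 9 of the 10 were listed in at least 1 table, through 22 transcripts and 40 listings. In all, the tables listed 11851 genes and 21537 transcripts. NR2F1 was listed in none of them, by symbol or by transcript identifier, so nothing can be said of its level.

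The tables came from poly-A RNA-seq of PGP1, a human induced pluripotent stem cell (iPSC) line, differentiated to cardiomyocytes with CHIR99021 and then IWP4. Wild-type libraries covered 5 stages with 3 libraries each: iPSC, M (mesoderm), CMes (cardiac mesoderm), CP (cardiac progenitor) and CM (cardiomyocyte), the last after selection in lactate. CMs of 2 lines that lack UBE2B, an E2 ubiquitin-conjugating enzyme, added 3 libraries per line. These UBE2B-/- lines came from separate CRISPR experiments on the same PGP1 background, and each grew from 1 picked colony. More cells were plated for them than for wild type. The paper sequenced only their beating cultures, and reports that a minority of UBE2B-/- cultures beat. It also reports that many cells of the beating UBE2B-/- cultures did not stain for TNNT2. Each replicate was a plate whose differentiation began at another time.

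T-box proteins bind DNA through a shared domain, and several act as opposites on the same sites. TBX5 and TBX20 work with NKX2-5 and GATA4 to switch on genes of the working myocardium. TBX2 and TBX3 repress those genes in the atrioventricular canal and the conduction system, and TBX18 marks the sinus venosus and the epicardium. IRX4 is a ventricular factor, IRX3 and IRX5 pattern the fast conduction system and repolarization, and NR2F1 and NR2F2 (COUP-TFI and COUP-TFII) are atrial factors.

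The members lie on 7 chromosomes of GRCh38 (GENCODE v44). TBX3 (chr12:114670255-114684175, minus strand) and TBX5 (chr12:114353911-114408442, minus strand) are neighbours 261.8 kb apart. IRX3 (chr16:54283304-54286787, minus strand) and IRX5 (chr16:54930865-54934485, plus strand) are 644.1 kb apart in the IRXB cluster. TBX2 is at chr17:61399843-61409466 on the plus strand, TBX18 at chr6:84687351-84764598 on the minus strand and TBX20 at chr7:35202430-35254100 on the minus strand. IRX4 is at chr5:1877413-1887236 on the minus strand, NR2F1 at chr5:93583222-93594611 on the plus strand and NR2F2 at chr15:96325938-96340263 on the plus strand. Of the 22 listed transcripts, 16 are annotated as protein-coding and 6 as retained-intron transcripts with no coding sequence (1 of TBX2, 1 of TBX20, 2 of TBX3, 1 of IRX3 and 1 of IRX5). Over all listed transcripts that could be matched to the annotation, 7.27% were retained-intron transcripts.

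Sequence features separate some of these transcripts, and they are shown because the levels below are given for each form. In their coding sequence, the coding TBX3 transcripts differ by a cassette exon of 60 bases in the T-box domain. It is exon 3 of the form that holds it, at chr12:114679913-114679972 on the minus strand. The exon is absent from the form that was more abundant in every stage table. The forms with and without it also begin apart, at 114683590 and 114684175, and are 4208 and 4733 bases long.

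TBX3 cassette exon: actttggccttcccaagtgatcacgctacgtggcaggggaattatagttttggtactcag

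The 2 listed IRX4 transcripts begin at separate start sites 4059 bases apart. The 250 bases before each start (RefSeq, GRCh38.p14, minus strand, from the RefSeq start nearest to the transcript) are chr5:1882926-1883175 for the downstream start and chr5:1886946-1887195 for the upstream start. The window before TBX20, the most abundant member in CP and CM, is chr7:35254101-35254350. Capitals mark GC boxes (GGGCGG on either strand). The upstream IRX4 window overlaps the listed transcript, which begins at 1886984, and the last GC box of that window lies in the overlap.

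IRX4 downstream start: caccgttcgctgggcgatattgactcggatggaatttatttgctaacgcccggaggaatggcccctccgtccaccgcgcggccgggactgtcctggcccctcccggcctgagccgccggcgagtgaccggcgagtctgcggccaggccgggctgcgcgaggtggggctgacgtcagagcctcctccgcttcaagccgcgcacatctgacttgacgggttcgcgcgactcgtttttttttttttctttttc

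IRX4 upstream start: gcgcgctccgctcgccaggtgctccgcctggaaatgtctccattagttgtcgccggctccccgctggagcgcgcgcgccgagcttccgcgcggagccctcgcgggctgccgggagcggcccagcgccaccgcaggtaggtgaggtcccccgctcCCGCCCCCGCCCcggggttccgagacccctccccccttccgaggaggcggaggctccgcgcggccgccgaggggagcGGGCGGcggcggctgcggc

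TBX20 start: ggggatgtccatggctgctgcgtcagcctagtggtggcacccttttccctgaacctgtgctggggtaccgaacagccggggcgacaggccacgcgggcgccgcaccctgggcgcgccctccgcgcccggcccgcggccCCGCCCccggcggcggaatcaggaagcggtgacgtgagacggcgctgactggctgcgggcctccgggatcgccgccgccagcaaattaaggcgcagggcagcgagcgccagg

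The downstream IRX4 window held 0 GC boxes and 64% G and C, the upstream window 3 GC boxes and 79.2% G and C, and the TBX20 window 1 GC box and 74% G and C. None of these 3 windows matched the T-box core AGGTGT, the nuclear receptor core AGGTCA, the GATA core AGATAA, the Iroquois core ACANNTGT or CCAAT on either strand, and no matches overlapped. Among 35116 RefSeq windows of the same length, 42.6% held a GC box, 9.57% the T-box core, 12.1% the nuclear receptor core, 9.17% the GATA core, 4.71% the Iroquois core and 32% CCAAT. Start windows were given for 6 of the 10 members.

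The deposited tables hold no value for a single library. Each gives, per listed transcript, the mean over all libraries of the groups compared (6 libraries for a pair of stages, 9 for the UBE2B-/- fit) and the variance around it. A level here is that mean, back-transformed to an estimated read count, so it is a geometric mean over the stages of a pair and not the level of 1 stage. The spread is the within-group standard deviation (SD) of a library on the log2 scale. Tables were scaled separately, so values set across them are descriptions. Only transcripts called different by the authors were listed, so an unlisted transcript may have been low, steady or filtered. The direction within a pair was not read from the tables, and no test was made here. In bulk RNA, fewer cells of a type and less RNA per cell cannot be told apart.

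All 8 cardiomyocyte markers, MYH6 and MYH7 among them, were listed in the CP and CM table, against 7 for CMes and CP and 1 in each of the 2 earliest tables. Of all genes listed anywhere, 66.5% were in the CP and CM table, 45.2% in that for CMes and CP, 39.7% in that for M and CMes and 22% in that for iPSC and M. Of 5 mesoderm markers, 5 were listed for CMes and CP and 1 for CP and CM. Of 5 endoderm markers, 4 were listed in the CP and CM table, where TTR had a mean of 2735 estimated counts. The CP and CM table also listed 5 of 6 fibroblast and mesenchymal, 4 of 4 smooth muscle and 4 of 5 pluripotent markers. Of 5 endothelial markers it listed 2, KDR at 1585 estimated counts and TEK at 178, while PECAM1, CDH5 and ERG were listed in no table. Of 4 neural markers it listed 1, TUBB3 at 788, ELAVL3 was listed only for M and CMes at 13.8, and PAX6 and SOX1 were listed in no table. The part of other cell types in the members' values was not tested.

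The number of members listed went from 1 in the iPSC and M table to 5 for M and CMes, 6 for CMes and CP and 6 for CP and CM. The tables themselves grew in that order, from 2613 listed genes to 4709, 5356 and 7886, and nothing is read from the members' count. TBX3 was the only member in all 4 stage tables. TBX20 and IRX3 were in 3 and TBX2 and IRX5 in 2, while TBX5 and IRX4 appeared only for CP and CM and TBX18 only for CMes and CP. NR2F2 was listed for CMes and CP and, among CMs, for UBE2B-/- line 1.

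**Figure D1:**
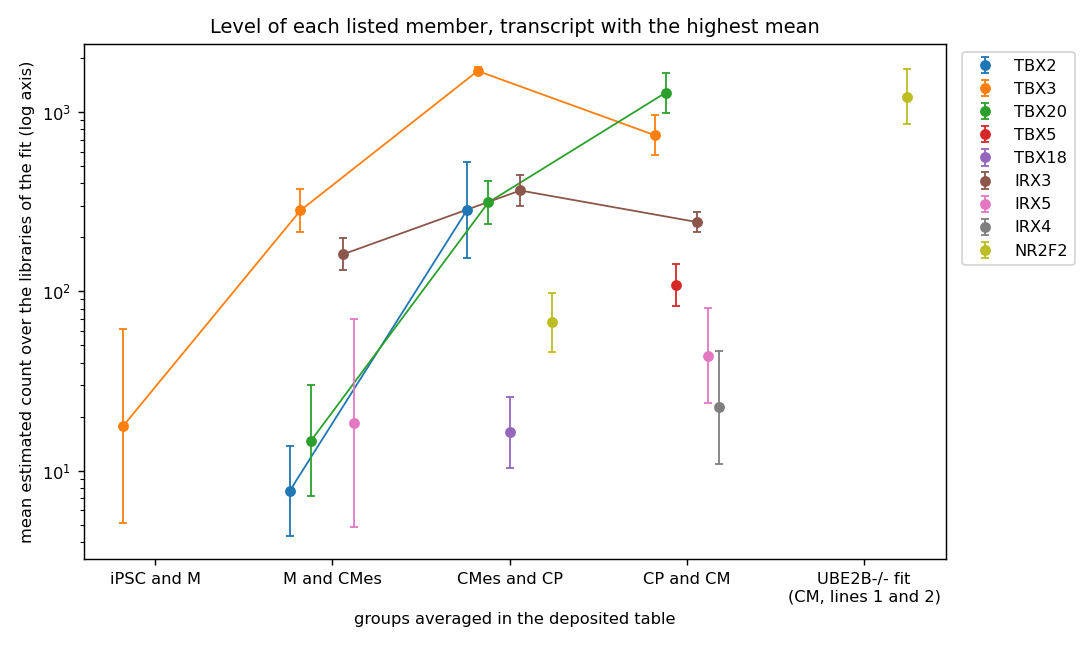
Mean estimated count (log axis) of the transcript with the highest mean of each listed member, by the groups averaged in each table; bars are 1 within-group SD on the log2 scale, and lines join neighbouring stage pairs. TBX3 peaked at 1693 in CMes and CP, while TBX20 went from 14.7 in M and CMes to 1280 in CP and CM.

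Among the repressors, TBX3 had the highest level per length of all members in CMes and CP. Its main transcript (ENST00000349155.7, 4733 bases) averaged 17.8 estimated counts over iPSC and M, with a within-group SD of 1.80 log2 units. The mean was 282 over M and CMes (SD 0.40), 1693 over CMes and CP (SD 0.07) and 742 over CP and CM (SD 0.37). Thus the level was highest in the pair that holds CMes and CP, and its replicate spread there was narrower than that of all but 2.91% of listed transcripts.

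Neighbouring tables share a stage, whose 3 libraries cancel when one mean is subtracted from the next. The difference of means multiplied by 2 is therefore the log2 difference between the outer stages, apart from the separate scaling of each table. For TBX3 the main transcript was 7.91 ± 1.06 (SE) log2 units higher in CMes than in iPSC. It was 5.16 ± 0.23 higher in CP than in M, and the difference of CM minus CMes was -2.38 ± 0.22. All of these exceeded 2 SE. With the median over all transcripts subtracted they were 7.75, 4.79 and -1.94.

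The form with the cassette exon followed the same course at a lower level, with means of 13.3, 165, 741 and 427 estimated counts from the first pair to the last. Its within-group SDs were 1.41, 0.39, 0.18 and 0.21 log2 units. Per kb of transcript, the form without the exon exceeded it 1.19-fold in iPSC and M, 1.52-fold in M and CMes, 2.03-fold in CMes and CP and 1.54-fold in CP and CM. The first of these ratios is within the replicate spread of either form. The longer retained-intron transcript of TBX3 had means of 6.71, 50.6 and 15.5 estimated counts in the last 3 pairs, and the shorter was listed only for CP and CM at 3.25.

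**Figure D2:**
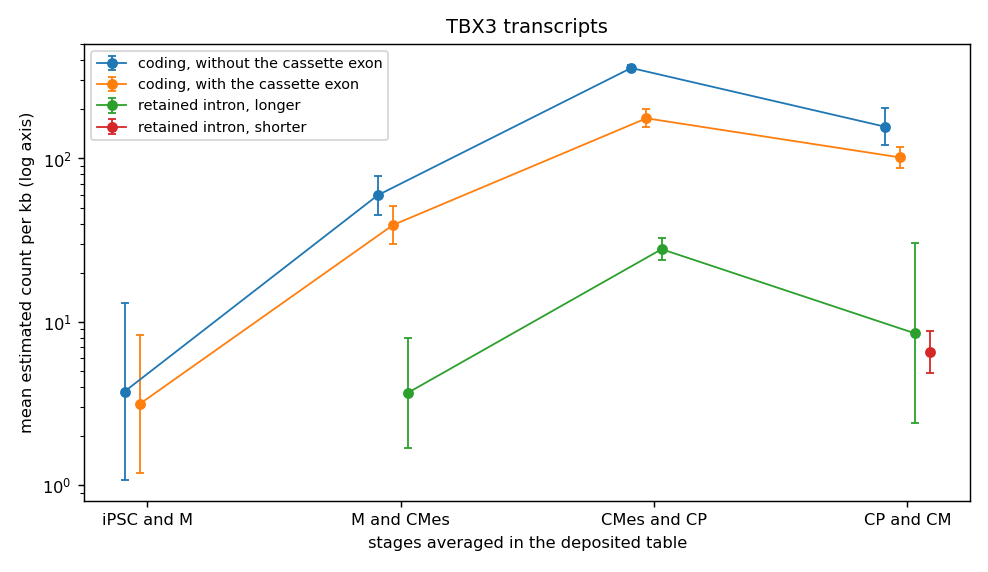
Mean estimated count per kb (log axis) of the 4 listed TBX3 transcripts in each stage pair; bars are 1 within-group SD on the log2 scale. Both coding forms were highest in CMes and CP, and the distance between them was widest there, at 2.03-fold.

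TBX2, the closest relative of TBX3, averaged 7.72 estimated counts over M and CMes (SD 0.84 log2 units) and 284 over CMes and CP (SD 0.89). The difference placed it 10.23 ± 0.70 log2 units higher in CP than in M, above 98.5% of transcripts listed in both tables. In CMes and CP only 68.3% of its variance lay between the stages, and the technical variance of the deposited fit made up 94.9% of the variance within them. Its retained-intron transcript was listed once, for M and CMes, at 4.11 estimated counts. TBX2 was not listed for CP and CM.

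TBX18 was listed only for CMes and CP, through 1 coding transcript with a mean of 16.3 estimated counts and an SD of 0.66 log2 units. Between the stages lay 96.3% of its variance. Per kb it was the lowest of the 6 members in that pair, at 2.54.

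Of the members listed for CP and CM, TBX20 had the highest level. Its coding transcript averaged 14.7 estimated counts over M and CMes (SD 1.02 log2 units), 313 over CMes and CP (SD 0.39) and 1280 over CP and CM (SD 0.37). It was 8.73 ± 0.63 log2 units higher in CP than in M and 4.06 ± 0.31 higher in CM than in CMes. Unlike TBX3, its level was higher in each later pair. TBX20 was 4.50 higher in CM than in CMes once the median of all transcripts was subtracted.

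The retained-intron transcript of TBX20 (905 bases) averaged 2.99 estimated counts over M and CMes and 232 over CP and CM, with SDs of 1.09 and 0.34 log2 units. Per kb the coding transcript exceeded it 2.44-fold in the earlier pair and 2.73-fold in the later one, so the ratio moved by less than the spread. Reads in exons common to both transcripts were divided by the quantification, which makes this ratio uncertain.

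TBX5, whose loss causes Holt-Oram syndrome, was listed only for CP and CM. Its 3 coding transcripts averaged 30.2, 17.3 and 3.80 estimated counts per kb, with SDs of 0.39, 0.27 and 1.70 log2 units. The technical variance that the deposited fit gave the first of them was 1093% of the variance seen within stages, against 3.7% for coding TBX20. The 3 share most exons, and their separate levels are therefore uncertain, while their sum was 187 estimated counts. A direction for TBX5 cannot be given from a single pair.

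Among the Iroquois factors, IRX3 was nearly level with TBX3 in M and CMes, at 61.2 against 59.7 estimated counts per kb. Its main transcript averaged 161 estimated counts over M and CMes (SD 0.30 log2 units), 365 over CMes and CP (SD 0.28) and 243 over CP and CM (SD 0.18). It was 2.36 ± 0.24 log2 units higher in CP than in M, and the difference of CM minus CMes was -1.17 ± 0.19. With the median subtracted these were 1.98 and -0.73. The SD over all libraries of the pair was 3.15 log2 units in M and CMes and 1.87 in CMes and CP. Of that variance, 99.3% and 98.2% lay between the stages. Apart from the scaling of each table, M and CMes thus lay further apart than M and CP. CMes therefore did not lie between M and CP, and the pair means do not trace a steady rise. A short coding transcript of IRX3 (444 bases) averaged 16.5 estimated counts in M and CMes and 39.2 in CMes and CP. It was 2.45 ± 0.33 log2 units higher in CP than in M. In these pairs the technical variance of the deposited fit was 501% and 137% of its variance within stages. A retained-intron transcript was listed once, for M and CMes, at 9.01.

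IRX5, the neighbour of IRX3, was far lower and more variable. Its main transcript averaged 18.4 estimated counts over M and CMes (SD 1.93 log2 units) and 43.8 over CP and CM (SD 0.88). These tables share no library, and the later mean was higher by 1.23 ± 0.86 log2 units, under 2 SE. The other coding transcript and the retained-intron transcript of IRX5, both listed only for CP and CM, averaged 10.8 and 10.1 with SDs of 2.24 and 2.03.

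IRX4 was listed only for CP and CM. The transcript from the downstream start averaged 22.5 estimated counts (SD 1.04 log2 units) and the one from the upstream start 11.4 (SD 0.26). Their levels per kb, 9.40 and 4.76, differed by less than the spread of the former. Between the stages lay 95.4% and 99.8% of their variance. For the upstream-start transcript, the technical variance of the deposited fit was 412% of its variance within stages, against 22.4% for the other. Its narrow SD and high share are therefore uncertain.

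NR2F2, the venous and atrial nuclear receptor, had 2 transcripts in the CMes and CP table. The main one averaged 67 estimated counts (SD 0.55 log2 units) and the other, from an upstream start, 25 (SD 1.62). Per kb they were at 12.7 and 11.3, a difference within the spread. No transcript of NR2F2 was listed for CP and CM.

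Ordered by level per kb, the main transcripts in M and CMes ran IRX3, TBX3, TBX20, IRX5 and TBX2. Only TBX3 and TBX20 among these neighbours were further apart than the larger of their SDs, by 2.89 log2 units. In CMes and CP the order was TBX3 (358 estimated counts per kb), TBX20 (172), IRX3 (139), TBX2 (82.7), NR2F2 (12.7) and TBX18 (2.54), and TBX20, IRX3 and TBX2 did not differ from their neighbours among these 3 beyond the spread. In CP and CM TBX20 stood first at 702, followed by TBX3 (157), IRX3 (92.6), TBX5 (30.2), IRX5 (18.3) and IRX4 (9.40). There TBX20 exceeded TBX3 by 2.16 log2 units, and the last 3 did not differ from their neighbours among them beyond the spread. TBX3 and TBX20 thus changed places between the pairs. These orders are of means over pairs, in which a transcript nearly absent from a stage ranks low even if abundant in the other. For CP and CM the SD over all libraries was 4.34 log2 units for IRX4, with 95.4% of the variance between stages. For IRX5 these were 2.03 and 84.9%, so the last place of IRX4 need not hold in its higher stage.

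Counted over member transcripts, 2 of 2 had a higher mean in M and CMes than in iPSC and M, against 62.9% of all transcripts listed in both tables. From there to CMes and CP, 7 of 7 were higher, against 60.2%, with a median difference of 2.58 log2 units for members and 0.19 for all. From CMes and CP to CP and CM, 1 of 5 was higher (TBX20), against 35.9%, with medians of -0.79 and -0.22. From M and CMes to CP and CM, which share no library, 7 of 7 were higher, against 50.3%. The differences of main IRX5 (1.23 ± 0.86) and the longer retained-intron TBX3 transcript (1.15 ± 0.87) were under 2 SE. The transcripts of each count come from 4 genes at most, and those of 1 gene share reads.

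**Figure D3:**
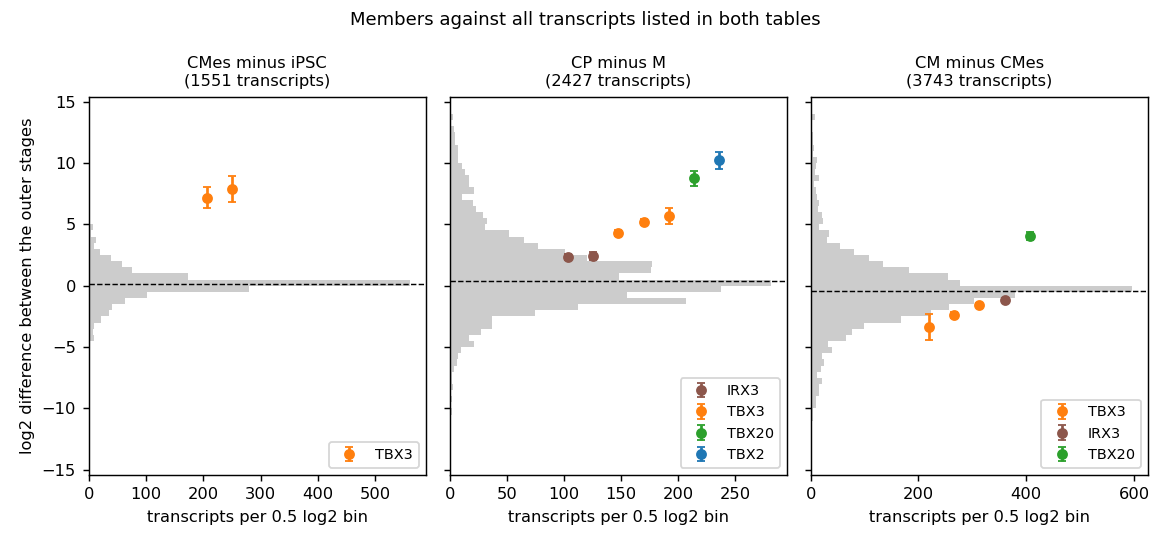
Log2 difference between the outer stages of neighbouring pairs, for each member transcript (points, with 1 SE) and for all transcripts listed in both tables (bars, 0.5 log2 wide, with values beyond the bins drawn in the end bins; dashed line, median). Points are spread sideways only to separate them. TBX2 and TBX20 lie highest for CP minus M, at 10.23 and 8.73, and for CM minus CMes TBX20 lies above 0 and TBX3 and IRX3 below it. M lay at the floor for TBX2 and near it for TBX20, so the sizes of these CP minus M differences depend on the 0.5 added before the log.

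How tightly the libraries of a stage held together was described by the share of the variance that lay between the groups. Because a transcript was listed for differing between those groups, a high share follows from the listing, and nothing is read from it. It was at least 90% in 0 of 2 member transcripts for iPSC and M, where 41.4% of all listed transcripts reached it. For M and CMes it was 7 of 11 (all listed, 42.8%), for CMes and CP 8 of 10 (all listed, 46%) and for CP and CM 10 of 15 (all listed, 48.3%). The highest shares were 99.8% for the upstream-start IRX4 transcript, whose lower stage lay at the floor, and 99.7% for main TBX3 in CMes and CP. The lowest in the stage tables were 68.3% for TBX2 in CMes and CP and 69.5% for the longer retained-intron TBX3 transcript in CP and CM.

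The members' spread within groups differed between tables. The median within-group SD of members was 1.60 log2 units for iPSC and M, 0.84 for M and CMes, 0.41 for CMes and CP and 0.39 for CP and CM, against 0.22, 0.26, 0.22 and 0.34 for all listed transcripts. The median member level was 15.5, 14.7, 176 and 43.8 estimated counts, against 354, 266, 365 and 184.

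**Figure D4:**
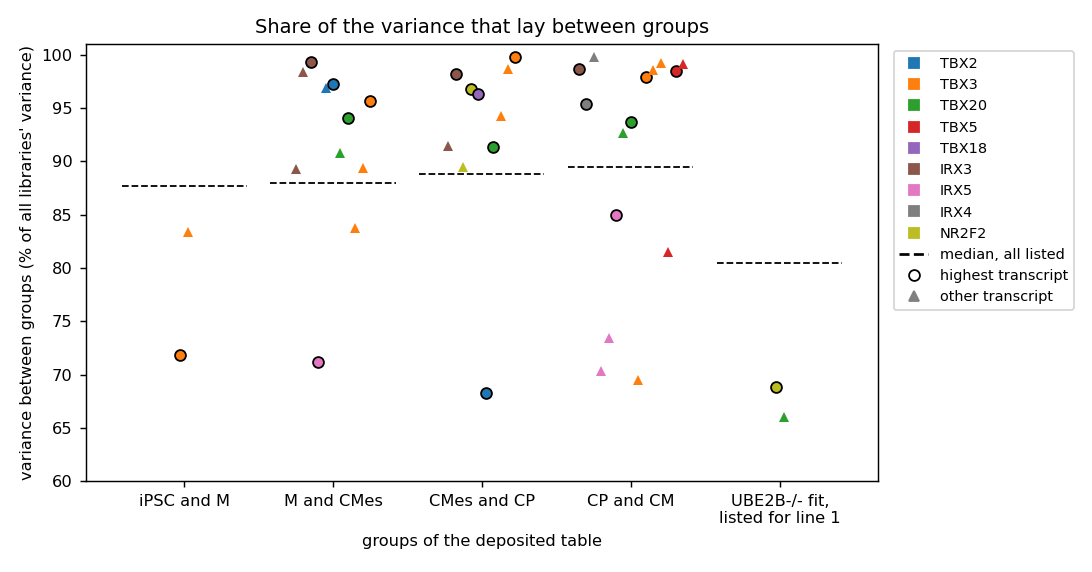
Share of the variance over libraries that lay between groups, in percent, for each member transcript by table (circles, transcript with the highest mean; triangles, others), with the median of all listed transcripts (dashed). The axis starts at 60%. The 2 member transcripts listed for UBE2B-/- line 1 lie below the median of 80.4%.

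The UBE2B-/- lines were compared with wild-type CMs in 1 fit of 9 libraries, and both tables gave the same means and variances for the 1992 transcripts listed for both. For UBE2B itself, 1 transcript with no defined coding sequence was listed for line 1 at 79.7 estimated counts and none for line 2. The members listed were NR2F2 and TBX20 for line 1 and none for line 2, where 20.6% and 20.4% of all genes listed anywhere had a row. The difference between the lines was not tested.

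NR2F2 averaged 1213 estimated counts over these 9 libraries, with a within-group SD of 0.51 log2 units, a level above 75.1% of the transcripts listed for line 1. That mean was 4.17 ± 0.28 log2 units above its mean over CMes and CP, a pair that shares no library with the fit, where 64.3% of transcripts were higher. The shift was 3.74 with the median of all transcripts subtracted. CMes and CP lay far apart for NR2F2, with an SD over all libraries of 2.74 log2 units and 96.8% of the variance between them. Against the higher of these stages the shift would be smaller. Of the NR2F2 variance in the UBE2B-/- fit, 68.8% lay between wild type and the 2 lines.

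TBX20 was listed for line 1 through its retained-intron transcript and not its coding one. That transcript averaged 268 estimated counts (SD 0.66 log2 units), which differed from its mean of 232 over CP and CM by 0.21 ± 0.21 log2 units. Of all transcripts listed in both, 86.3% had the higher mean in the UBE2B-/- fit, and with their median subtracted the difference was -0.23. Between groups lay 66% of its variance. The share reached 90% in 0 of 2 member transcripts here, and in 15.8% of all listed for line 1.

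Genes of mesenchymal cells were also listed in these tables, 2 of 6 markers for line 1 and 5 of 6 for line 2. Of all genes listed anywhere, 20.6% and 20.4% were listed for these lines. KDR was listed for line 2 at 505 estimated counts and TUBB3 for line 1 at 2994. COL3A1, a fibrillar collagen, averaged 50516 estimated counts over the 9 libraries. Cardiomyocyte markers numbered 5 of 8 for line 1 and 6 of 8 for line 2. Smooth muscle markers numbered 1 of 4 for each line, and endoderm markers 1 of 5 for line 1 and 0 for line 2. No pluripotent or mesoderm marker was listed for either line. The part of these cell types in the NR2F2 and TBX20 listings was not tested.

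Of 12 other T-box genes, 6 were listed in any table. EOMES, a mesendoderm factor, averaged 523 estimated counts over CMes and CP and 27.9 over CP and CM, and TBX1 of the pharyngeal second heart field 71.3 and 14.2. MGA was listed once, for CP and CM, at 399. Of 4 other Iroquois and NR2F genes 3 were listed, 0 of them for CP and CM.

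The partner factors of the T-box proteins were all listed in at least 1 table, 8 of 8. For CP and CM 6 of the 8 were listed, beside 66.5% of all genes listed anywhere. HAND1 averaged 4655 estimated counts over CMes and CP and 2548 over CP and CM, and like TBX3 it was lower in the last pair. HAND2 averaged 3.37, 116 and 593, and NKX2-5 44.5 and 598 in the last 2. Of the main transcripts of these factors listed in both tables, 4 of 4 were higher in CMes and CP than in M and CMes. Of all transcripts listed in both, 60.2% were higher. From CMes and CP to CP and CM, 3 were higher and 2 lower, where 35.9% of all transcripts were higher.

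Chamber, conduction and epicardial genes were counted in the same way. For CP and CM, 5 of 7 ventricular, 7 of 9 atrial, 7 of 9 conduction and pacemaker and 3 of 6 epicardial genes were listed, beside 66.5% of all genes listed anywhere. MYH7, the slow ventricular myosin, averaged 14.8 estimated counts over CMes and CP and 4509 over CP and CM. GJA1, the main ventricular gap junction gene, averaged 16822, 14618 and 4538 in the last 3 pairs, and the light chain gene MYL3 was listed once, for CP and CM, at 777. The atrial light chain MYL7 averaged 32.5, 1422 and 15456 in the last 3 pairs, and the atrial myosin MYH6 372 and 20016 in the last 2. HCN4, the pacemaker channel, averaged 544 and 1782 in the last 2. The signals BMP2 and BMP4 averaged 2440 and 328 over CP and CM. BNC1 of the epicardium averaged 227 and 529, while TCF21 (22.6) and WT1 (3.07) were low over CP and CM. NPPA, the atrial natriuretic peptide that TBX5 activates and TBX2 and TBX3 repress, averaged 371 over CP and CM with an SD of 2.30 log2 units. The same NPPA transcript was listed for both UBE2B-/- lines, at 7307 over the 9 libraries of that fit. These fits were scaled separately, and 86.3% of transcripts listed for CP and CM and for line 1 were higher in the UBE2B-/- fit. Over CP and CM, 91% of the NPPA variance lay between the stages, so 371 includes a stage with a lower level. No direction for the UBE2B-/- lines is given by these values.

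The transcripts most like a member were those with the smallest root mean square distance between mean-centred levels, on the log2 scale. For TBX3, over 4 tables and 397 transcripts, they were those of GREB1L (0.47), SMAD6 (0.56) and HOXB2 (0.65). For TBX20, over 3 tables and 1327 transcripts, they were IGFBP5 (0.04), RCAN1 (0.08) and MYL7 (0.09). For IRX3, over the same 3 tables, they were FAM229A (0.004), FERMT2 (0.03) and ID2 (0.04). With 3 or 4 points per gene, such likeness is a description only.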

How the data were processed

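Reads of poly-A RNA from 21 libraries were trimmed with the FASTX-Toolkit and quantified against hg38 transcripts with Kallisto by the authors, who fitted each comparison in Sleuth. They deposited 6 tables of transcripts past a q-value limit, 4 for stage pairs and 2 for the UBE2B-/- lines. The deposited means are natural logs of the estimated count plus 0.5, scaled within each fit. The deposited variances are scores in squared natural-log units, total, technical and biological, from the authors' fit. There were 0 columns of values per sample, so depth per library is unknown here. Columns of effects, their standard errors, p-values and q-values hold the authors' comparisons and were not used.

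Levels were computed as the exponential of the mean minus 0.5, and per kb with GENCODE v44 lengths (versions differed for 3 transcripts). Within-group variance was technical plus biological variance. The between-group share was 1 minus the ratio of the within-group to the total sum of squares. SEs of differences between tables came from within-group variances. No p-value was computed. The variance formulas were tested on simulated data. All 10 members were reported, each through its transcript with the highest mean over the tables and its other transcripts by value. Genes shown from related lists were the 3 with the highest mean for CP and CM. Alike transcripts were the 3 closest per member listed in at least 3 stage tables. Members and lists were chosen with earlier results of these data known. Python 3.11.15 and pandas 2.3.3 were used. Alternatives covered the transcript that stands for a gene, the pseudocount, the median difference, a limit of 10 estimated counts and the deposited final variance.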

Additional observations from a re-analysis of the deposited data

How the results depend on the processing

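Counting a gene only through its transcript with the highest mean left 1 member in place of 2 listed for UBE2B-/- line 1, and the other tables changed by less than 1.5 times. Subtracting the median difference of all transcripts left the counts of higher member transcripts within 1.5 times, except that 0 in place of 1 was higher in the UBE2B-/- fit than in CP and CM. There the difference of the retained-intron TBX20 transcript changed sign, from 0.21 to -0.23 log2 units, with an SE of 0.21. Among single transcripts, 10 differences moved by more than their SE under this subtraction and 13 did not. With the final variance of the deposited fit, the member transcripts with at least 90% of the variance between groups numbered 4 in place of 7 for M and CMes and 5 in place of 8 for CMes and CP. With a limit of 10 estimated counts, they numbered 4 for M and CMes. Summing all listed transcripts moved 4 of 19 levels by more than their SD (TBX3 in 3 pairs and TBX5), and leaving in the pseudocount moved none. No paired analysis was possible because the tables hold no value per library, and for the same reason no library could be left out. Depth per library was not given, so low means such as those of TBX3 in iPSC and M are bounded only by their SD.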
